A study of Astyanax mexicanus with 26 samples.

Results

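Broad H3K27ac domains are stretches of chromatin in which peaks of histone H3 acetylated at lysine 27 lie so close together that they form one wide block. They were found by joining H3K27ac peaks at most 1 kb apart within each morph and keeping joined domains of 5000 bp or more. Of the joined H3K27ac domains, 929 of 68388 in Pachon, 1047 of 89319 in Tinaja and 820 of 50794 in surface fish were that wide. Overlapping broad domains of the 3 morphs were merged into 1664 loci, out of 102986 loci formed in the same way from joined H3K27ac domains of any width. The members were thus chosen by the width of H3K27ac, so every H3K27ac width, class and H3K27ac cover below is a description. H3K4me3, H3K27me3 and position were not used in the choice. H3K4me3 shares library numbers with H3K27ac in the labels, so it is not an independent measure.

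The study profiled adult livers of *Astyanax mexicanus* by chromatin immunoprecipitation and sequencing in 3 morphs, which were the Pachon cave variant, the Tinaja cave variant and the river-dwelling surface fish. Per the labels, livers were fixed in 1% formaldehyde for 15 min, each sample used 200000 cells and 1 ug of antibody, and reads were single and 50 bp long. Each morph and mark had 2 libraries, except Tinaja H3K4me3 and H3K27ac with 3, and total chromatin served as background. For each of the 9 pairs of morph and mark the authors deposited a single list of peak positions. Each group thus had 1 value, no spread between replicates could be computed, and no difference between morphs was tested. Sex, exact age and any pooling of animals are not stated in the labels. For H3K4me3 and H3K27ac the library numbers in the labels never join surface with a cave morph, so surface against cave and library number cannot be told apart. The depth is unknown, and a peak missing from a list does not show that the mark is absent. In whole liver, fewer cells with a mark and less of the mark per cell cannot be told apart. Positions below start at 1 and use the build of the deposited lists, whose name is not given. No gene could be named, so the liver label was not checked against marker genes.

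Acetylation of H3 at lysine 27 is laid down by the acetyltransferases p300 and CBP at active promoters and enhancers, and long runs of acetylated enhancers in mammals, often called super-enhancers, tend to lie at genes that define a cell type. Trimethylation of H3 at lysine 4 marks promoters of active and poised genes. Trimethylation at lysine 27 is the mark of Polycomb repression, and it uses the same lysine as the acetylation, so a single histone tail cannot carry both.

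Broad domains were few, and their share of the acetylated bases was several times their share of the domains. They made up 1.36% of the joined H3K27ac domains in Pachon, 1.17% in Tinaja and 1.61% in surface, and held 7.71%, 7.31% and 8.73% of the bases under H3K27ac peaks in the same order of morphs. Together they spanned 6.38 Mb in Pachon, 7.22 Mb in Tinaja and 5.65 Mb in surface. Their width was nearly the same in each morph, with a median of 6206 bp in Pachon, 6242 bp in Tinaja and 6215 bp in surface. The quartiles were 5522 and 7447 bp in Pachon, 5493 and 7550 bp in Tinaja, and 5477 and 7433 bp in surface. A small tail reached 10 kb or more, with 69 domains in Pachon, 82 in Tinaja and 67 in surface. The widest spanned 21009 bp in Pachon, 23602 bp in Tinaja and 20799 bp in surface.

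The domains were mostly chains of several peaks rather than single wide peaks. The median number of H3K27ac peaks per domain was 5 in each morph, and the maximum was 19 in Pachon, 17 in Tinaja and 17 in surface. Only 4 domains in Pachon, 4 in Tinaja and 1 in surface were formed by a single peak. The widest peak of a domain had a median width of 1434 bp in Pachon, 1592 bp in Tinaja and 1492 bp in surface. Peaks filled a median of 64.6% of a domain in Pachon, 67.9% in Tinaja and 66.8% in surface, and the rest was gaps of up to 1 kb. When only the bases under peaks counted, 240 of the 929 domains in Pachon, 322 of the 1047 in Tinaja and 227 of the 820 in surface reached 5000 bp. The limit itself falls in a continuous range of widths. In Pachon the closest domains inside it were 5001 and 5006 bp wide and the closest outside were both 4999 bp. In Tinaja these were 5003 and 5004 bp inside and 4998 and 4992 bp outside, and in surface 5001 and 5002 bp inside and 4997 and 4995 bp outside.

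H3K4me3 was found in most broad domains but covered a smaller part of them than of narrower acetylated domains. A domain met H3K4me3 when at least 1 bp overlapped. In Pachon, 685 of 929 broad domains did so, or 73.7% (exact binomial 95% interval 70.8 to 76.5), against 39.2% of all joined H3K27ac domains. In Tinaja it was 977 of 1047, or 93.3% (91.6 to 94.8), against 66.1%, and in surface 654 of 820, or 79.8% (76.8 to 82.5), against 44.6%. These intervals, like all below, cover counting error only. A wider domain has more bases in which to meet a peak, and the part of width in these shares was not tested. Cover, the percent of bases under a peak, ran the other way. H3K4me3 covered 21.4% of the broad domains of Pachon, 30.4% of those of Tinaja and 22.7% of those of surface. In domains of 2 to 5 kb it covered 26.9% in Pachon, 38.9% in Tinaja and 28.0% in surface. In those of 1 to 2 kb it covered 35.5%, 48.5% and 37.7% in the same order, and in those under 1 kb 31.9%, 57.1% and 35.4%. Cover was thus lowest in the broad domains, but in Pachon and surface it did not rise at each step to narrower domains. The Tinaja H3K4me3 list was the longest, with 136219 peaks, against 64432 in Pachon and 56323 in surface. When each list of a mark was shortened to the length of the shortest by keeping its widest peaks, the cover of the broad domains was 20.5% in Pachon, 23.3% in Tinaja and 22.7% in surface. In domains of 2 to 5 kb it was then 26.0% in Pachon, 31.5% in Tinaja and 28.0% in surface, so the lower cover of broad domains was present in each morph with lists of equal length.

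Many broad domains held several separate H3K4me3 peaks. The median was 2 in Pachon, 3 in Tinaja and 2 in surface, and 3 or more were found in 308, 628 and 341 domains in that order. The most crowded domain held 13 in Pachon, 13 in Tinaja and 12 in surface. H3K4me3 peaks were not counted in narrower domains, so these numbers are not read as a trait of broad domains. All were counted in the full lists, of which that of Tinaja was the longest. A further 244 domains in Pachon, 70 in Tinaja and 166 in surface held none, and these were blocks of H3K27ac without a listed promoter mark. They were 26.3%, 6.69% and 20.2% of the broad domains, against 60.8%, 33.9% and 55.4% of all joined domains. H3K4me3 covered over 50% of the bases of 117 domains in Pachon, or 12.6%, against 30.3% of all joined domains. In Tinaja it did so in 197, or 18.8%, against 55%, and in surface in 97, or 11.8%, against 34%. Within the domains, H3K4me3 lay almost wholly on the H3K27ac peaks. It covered 31.3% of the peak bases and 2.54% of the gap bases in Pachon, 42.8% and 3.81% in Tinaja, and 32.7% and 2.08% in surface.

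The position of H3K4me3 along a domain differed between broad and narrower domains. In the broad domains, H3K4me3 covered 23.4% of the 10% of the length next to each end and 22.8% of the middle 20% in Pachon, 37.9% and 29.9% in Tinaja, and 24.1% and 22.8% in surface. In domains of 2 to 5 kb it was highest toward both ends, with 31.0% there and 23.1% in the middle in Pachon, 47.0% and 33.0% in Tinaja, and 31.3% and 23.7% in surface. The profile of the broad domains was thus flatter. Among them, those of Tinaja had the clearest rise at the ends. The ends of a joined domain are H3K27ac peaks by construction. In the broad domains H3K27ac covered 82.9% of these end parts and 63.2% of the middle part in Pachon, 84.4% and 67.8% in Tinaja, and 84.1% and 65.7% in surface. In domains of 2 to 5 kb this contrast was steeper, with 98.6% and 55.0% in Pachon, 98.8% and 58.1% in Tinaja, and 98.6% and 57.4% in surface. The part of this H3K27ac contrast in the H3K4me3 profiles, and in their difference between broad and narrower domains, was not tested. From 1 to 5 kb outside the broad domains, H3K4me3 covered 6.38% of bases in Pachon, 10.7% in Tinaja and 6.61% in surface.

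**Figure D1:**
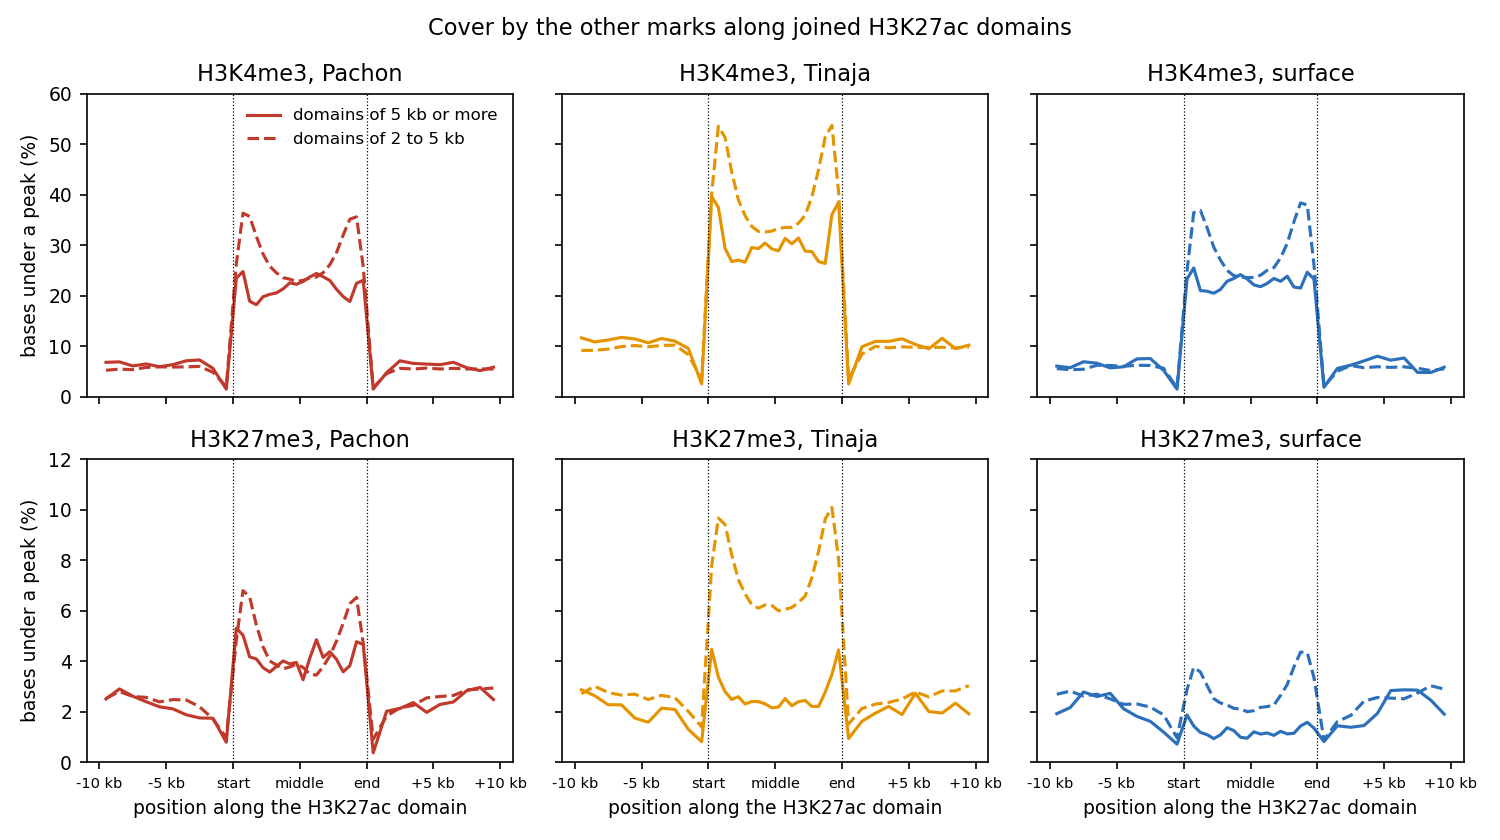
Percent of bases under H3K4me3 peaks (top) and H3K27me3 peaks (bottom) along joined H3K27ac domains of each morph, in 20 equal bins from start to end and in 1 kb bins over 10 kb on each side; solid lines are domains of 5 kb or more and dashed lines domains of 2 to 5 kb. The dashed H3K4me3 lines peak near both ends while the solid lines are flatter, and both marks drop in the 1 kb next to a domain, where no H3K27ac peak can lie by construction.

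The widest H3K4me3 peak of a domain could lie anywhere along it, with the largest excess at the ends in Tinaja. Each domain was divided into an end zone at both ends, a middle zone and an intermediate zone of equal total length. The widest peak lay in the end zone in 33.9% of the Pachon domains that had one, 39.2% of those of Tinaja and 34.3% of those of surface. It lay in the middle zone in 36.2%, 33.9% and 31.7% in the same order. Widest here means the longest part inside the domain, and that part had a median length of 827 bp in Pachon, 862 bp in Tinaja and 824 bp in surface.

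H3K27me3 covered less of the broad domains than of all narrower joined domains. It covered 3.87% of broad-domain bases in Pachon, 2.68% in Tinaja and 1.26% in surface, against 10.5%, 16.4% and 7.42% in all narrower joined domains. Domains of 2 to 5 kb stood between in Tinaja, at 6.83%, and surface, at 2.66%, while in Pachon they had 4.43%, close to the broad domains. With each domain weighted equally, H3K27me3 covered 4.17% of the broad domains in Pachon, 2.71% in Tinaja and 1.23% in surface. From 1 to 5 kb outside them it covered 2.00%, 1.85% and 1.62%. Only in surface was cover thus lower inside the broad domains than in these flanks. At least 1 bp of H3K27me3 was met by 168 broad domains in Pachon, or 18.1% (15.7 to 20.7), against 19.3% of all joined domains. In Tinaja it was 178, or 17.0% (14.8 to 19.4), against 26.9%, and in surface 73, or 8.90% (7.04 to 11.1), against 14.8%. The Pachon share was thus near its background, and those of Tinaja and surface were below theirs although broad domains offer more bases. The mark was concentrated in few members. The 20 domains with the most H3K27me3 bases held 43.1% of all such bases in the broad domains of Pachon, 41.6% in Tinaja and 66.1% in surface. The nearest H3K27me3 peak was a median of 11766 bp away in Pachon, 12603 bp in Tinaja and 11779 bp in surface, against 10112 bp, 9895 bp and 10084 bp for domains of 2 to 5 kb. For all narrower domains it was 7096 bp, 6011 bp and 7589 bp, so the domains of 2 to 5 kb were closer in distance to the broad ones than to the rest.

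The next question was how far the 3 morphs shared their broad domains. Of the 1664 loci, 356 carried a broad domain in all 3 morphs, which is 21.4% (19.4 to 23.4). Both cave morphs and not surface carried 187, or 11.2%, Pachon and surface 112, or 6.73%, and Tinaja and surface 107, or 6.43%. Broad domains of a single morph were more frequent, with 267 loci in Pachon alone, 393 in Tinaja alone and 242 in surface alone, or 16.0%, 23.6% and 14.5%. The order of these counts followed the lengths of the H3K27ac lists, which had 93527 peaks in Pachon, 117125 in Tinaja and 70089 in surface. With lists of equal length there were 1232 loci, and 241 of them, or 19.6%, had a broad domain in all 3 morphs. The single classes then turned round, with 163 in Pachon alone, 177 in Tinaja alone and 360 in surface alone. Both caves without surface held 74, fewer than the 132 of Pachon and surface and the 85 of Tinaja and surface. The order of the single classes and that of the pairs thus turned with list length. No direction between caves and surface is read from either.

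**Figure D2:**
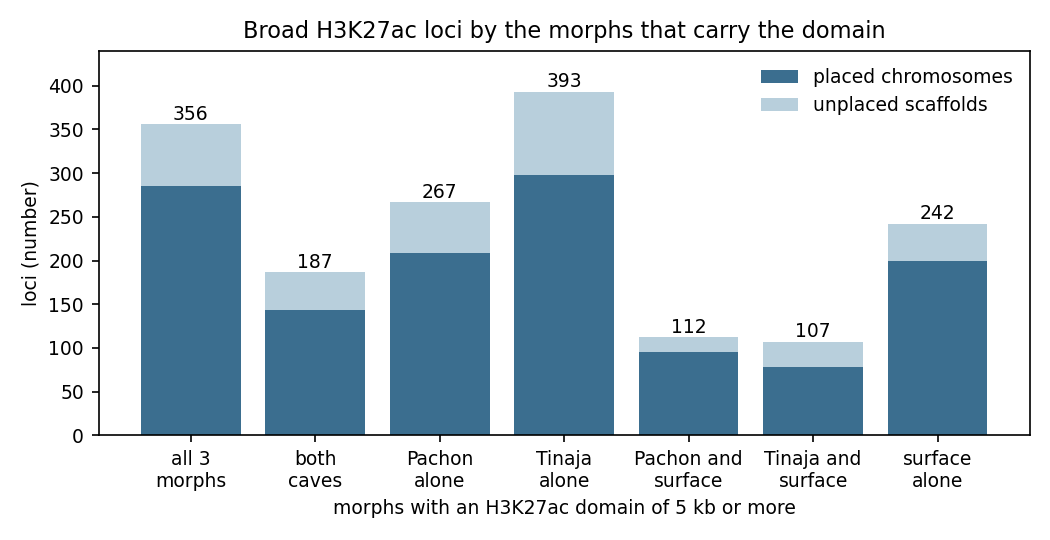
Number of broad H3K27ac loci (vertical axis) by the morphs that carry a joined domain of 5 kb or more (horizontal axis), split into loci on placed chromosomes and on unplaced scaffolds, with the total above each bar. The 356 loci of all 3 morphs are outnumbered by the 393 of Tinaja alone. The 2 classes that join surface with a single cave are the smallest in these full lists, but not with lists of equal length.

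The class of a locus was mostly a matter of degree. At 1630 of the 1664 loci, or 98.0%, each morph had at least 1 H3K27ac peak, against 37.1% of all H3K27ac loci, and this share is partly fixed by the rule. At the 187 loci of both caves, the widest joined domain in surface had a median of 3.31 kb, and 66 of them reached 4 to 5 kb there. At the 267 loci of Pachon alone the median was 3.11 kb in Tinaja and 2.44 kb in surface. At the 393 loci of Tinaja alone it was 3.12 kb in Pachon and 2.73 kb in surface, and at the 242 loci of surface alone it was 3.17 kb in Pachon and 3.14 kb in Tinaja. The domain of the remaining morph was thus usually present and shorter than 5 kb. No H3K27ac peak at all was listed in Pachon at 8 loci, in Tinaja at 1 and in surface at 30.

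Loci that were wide in at least 1 morph more often had a domain of 5 kb or more in all 3. Width here is the summed width of the broad domains of a morph at a locus, taken in the morph where it was largest. At 12 loci a morph had more than 1 broad domain, so the sum for that morph exceeded its widest single domain. The part of such sums in the order below was not tested. Among the 697 loci where this width was 5 to 6 kb, 55 were shared by all 3 morphs, or 7.89%. The share was 21.3% of the 634 loci of 6 to 8 kb and 34.8% of the 201 loci of 8 to 10 kb. It was 72.7% (64.3 to 80.1) of the 132 loci of 10 kb or more. Of those 132, 96 belonged to all 3 morphs and 19 to both caves. Tinaja alone, Pachon and surface, and Tinaja and surface held 5 each, and Pachon alone and surface alone 1 each. These counts are of the full lists, so no direction between caves and surface is read from them. A wide domain can also lose more width before it falls under 5 kb, and the part of this in the order was not tested. Both the width and the sharing come from the H3K27ac widths used in the choice, so the order is partly fixed by the rule. When the minimum width was raised for every morph, the share in all 3 did not rise. It was 26.3% with 4 kb, 21.4% with 5 kb and 18.3% with 8 kb.

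At the 356 shared loci the widths of the morphs lay close together. The summed width of the broad domains in Pachon over that in surface had a median ratio of 1.00, with quartiles of 0.970 and 1.06, and Pachon was wider at 186 loci and narrower at 170. For Tinaja over surface the median was 1.01, with quartiles of 0.973 and 1.14, and Tinaja was wider at 213 and narrower at 142. For Pachon over Tinaja it was 0.996, with Pachon wider at 156 and narrower at 200. The widest morph was less than 1.25 times the narrowest at 218 loci and 2 times or more at 14. A median of 83.4% of the locus lay inside the domains of all 3 morphs.

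**Figure D3:**
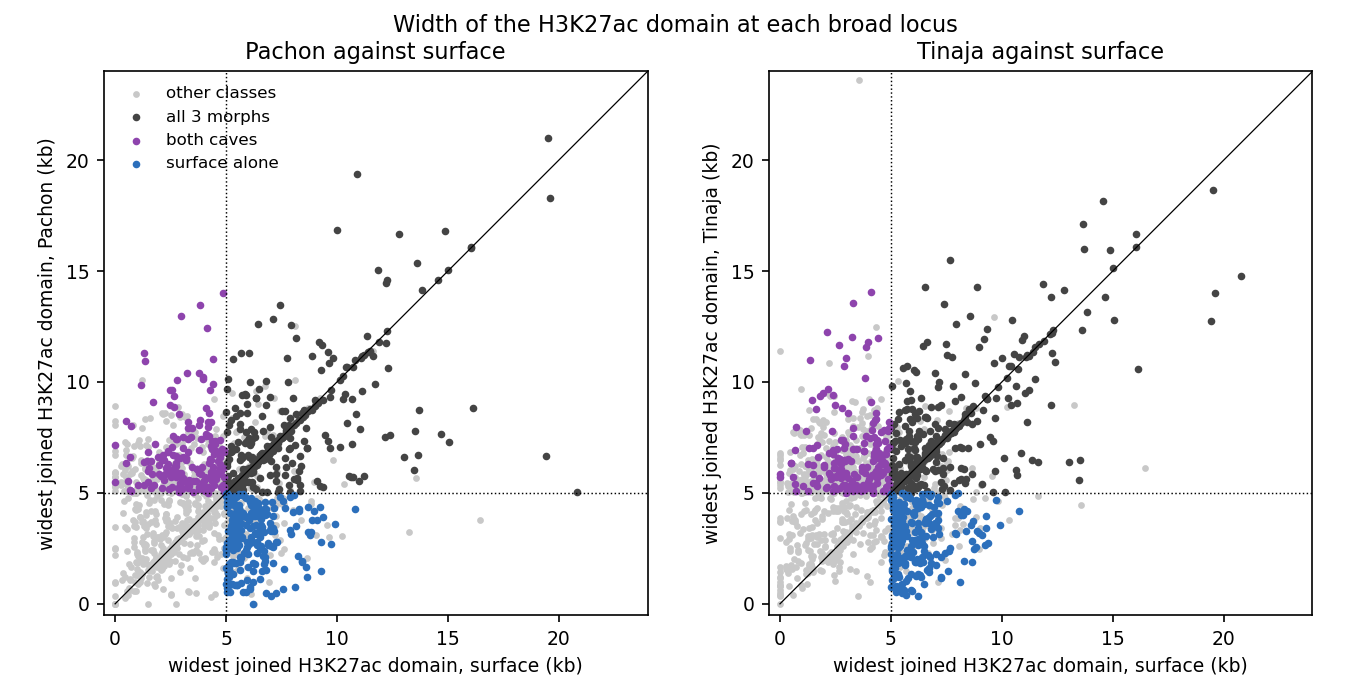
Width of the widest joined H3K27ac domain (kb) at each of the 1664 broad loci in Pachon (left) and Tinaja (right), on the vertical axis, against surface on the horizontal axis; points are coloured by class, dotted lines mark 5 kb and the diagonal marks equal width. The shared loci follow the diagonal, and most loci of both caves or of surface alone have a domain of 1 to 5 kb in the other morphs and not 0.

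The widest shared loci are named next, by chromosome and position, with the summed width of their broad domains in each morph. The widest on average lay on chromosome 6, from 12909044 to 12930052. Its domain was 21.0 kb wide in Pachon, 18.7 kb in Tinaja and 19.5 kb in surface, and was built from 19, 17 and 18 H3K27ac peaks. H3K4me3 formed 13 peaks there in Pachon, 13 in Tinaja and 11 in surface, and covered 31.9%, 36.7% and 24.3% of the locus. No H3K27me3 was listed in any morph. Chromosome 5, from 36090940 to 36117617, followed with 22.6 kb in Pachon and 19.2 kb in Tinaja, each the sum of separate domains, and 12.2 kb in surface. It was the only one of the 10 widest shared loci with H3K27me3, at 5.65% of bases in Pachon, 6.20% in Tinaja and 7.16% in surface.

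Several of these loci had almost equal widths in the 3 morphs. On chromosome 25, from 45347018 to 45363154, the domain measured 16089 bp in Pachon, 16088 bp in Tinaja and 16052 bp in surface. On chromosome 1, from 15897453 to 15914207, it measured 16.0 kb in Pachon, 16.7 kb in Tinaja and 16.1 kb in surface, with H3K4me3 on 36.6%, 38.5% and 35.4% of the locus. On chromosome 12, from 17845538 to 17865590, it measured 16.8 kb in Pachon, 15.9 kb in Tinaja and 14.9 kb in surface. The whole locus on chromosome 25 spanned 16137 bp, so its domains nearly coincided. Chromosome 15, from 11229389 to 11247744, had 14.6 kb in Pachon, 18.2 kb in Tinaja and 14.5 kb in surface, and chromosome 20, from 1796384 to 1820435, had 18.3, 14.0 and 19.6 kb.

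Other wide shared loci had little H3K4me3 in at least 1 morph. On chromosome 1, from 13548607 to 13567419, the domains summed to 16.2 kb in Pachon and measured 16.0 kb in Tinaja and 13.7 kb in surface. No H3K4me3 was listed there in Pachon or Tinaja, and it covered 4.96% in surface. On chromosome 9, from 41206430 to 41221808, domains of 15.4 kb in Pachon, 12.3 kb in Tinaja and 13.6 kb in surface had H3K4me3 on 2.28%, 5.13% and 2.94% of the locus. On chromosome 9, from 27546274 to 27557414, it covered 15.0% in Tinaja and was not listed in Pachon or surface. On chromosome 18, from 25096085 to 25115461, the width was 19.4 kb in Pachon, 18.1 kb summed in Tinaja and 10.9 kb in surface, with H3K4me3 on 5.08%, 12.9% and 2.59%. The widest broad loci thus ranged from runs of acetylation with a promoter mark in many places to runs with little of it.

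The shared loci with unequal widths were not all of 1 direction. The Pachon width was 1.5 times that of surface or more at 24 of them and the reverse held at 21. At the 4 loci with the largest ratio between widest and narrowest on placed chromosomes, the surface domain was wider than that of Pachon. On chromosome 3, from 20430174 to 20452838, the domain was 5.03 kb in Pachon, 14.8 kb in Tinaja and 20.8 kb in surface, a ratio of 4.13 between widest and narrowest. H3K4me3 covered 25.4% of that locus in Pachon, 38.7% in Tinaja and 37.3% in surface, and H3K27me3 8.10%, 4.15% and 3.11%. On chromosome 24, from 36653667 to 36676770, the widths were 6.68 kb in Pachon, 20.9 kb summed in Tinaja and 19.4 kb in surface. Pachon nonetheless had 19 H3K27ac peaks in that locus, against 21 in Tinaja and 19 in surface, and they covered 47.1%, 55.2% and 59.1% of it. The number of peaks was thus alike, and Pachon had fewer bases under them. On chromosome 24, from 39996467 to 40012679, the widths were 5.68, 7.04 and 13.8 kb (the last summed over separate domains), and on chromosome 2, from 24482065 to 24495552, they were 6.01, 5.57 and 13.5 kb, in the order Pachon, Tinaja and surface.

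**Figure D4:**
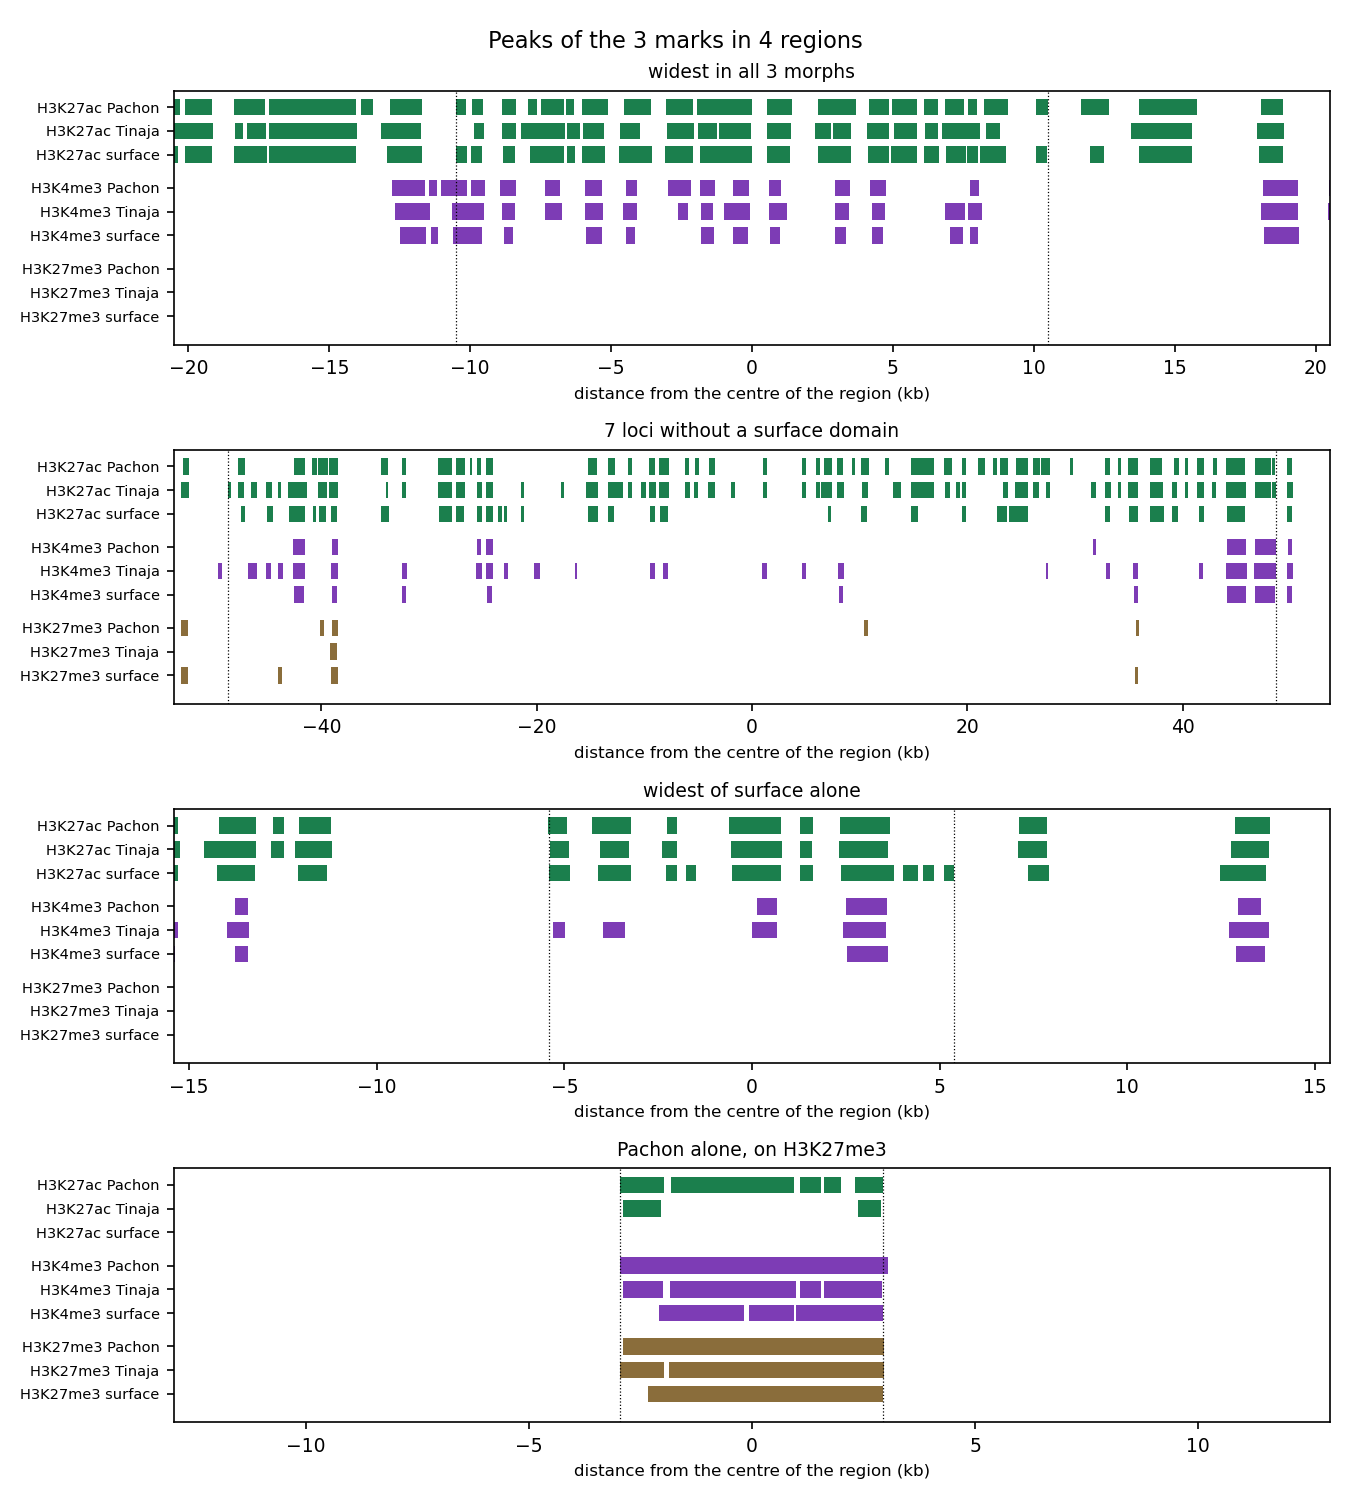
Peaks of the 3 marks in each morph in 4 regions, against the distance from the centre of the region in kb; dotted lines mark the region. From top to bottom they are the widest shared locus on chromosome 6, the 7 loci of chromosome 2 without a surface domain, the widest locus of surface alone on chromosome 19, and the locus of Pachon alone on chromosome 23 where H3K4me3 and H3K27me3 are broad in each morph and H3K27ac is not listed in surface.

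Loci that were broad in both caves and not in surface kept shorter domains in surface. On chromosome 15, from 8693376 to 8707503, the domain was 7.66 kb in Pachon and 14.1 kb in Tinaja, against a widest joined domain of 4.10 kb in surface. H3K27ac covered 28.7% of that locus in Pachon, 58.2% in Tinaja and 32.0% in surface, so by cover Pachon was nearer to surface than to Tinaja. On chromosome 14, from 36357302 to 36373788, the widths were 13.5 kb in Pachon and 10.2 kb in Tinaja, against 3.82 kb in surface. On chromosome 7, from 35465593 to 35478577, they were 13.0 kb in Pachon and 11.1 kb in Tinaja, against 2.96 kb in surface. This locus also had H3K27me3 in surface alone, in 3 peaks on 12.4% of its bases. No H3K27ac was listed in surface at 2 loci of this class. On chromosome 15, from 11507163 to 11514323, H3K27ac covered 50.9% in Pachon and 36.6% in Tinaja, and a single H3K4me3 peak remained in surface on 7.19%. On chromosome 18, from 25354819 to 25361725, it covered 52.4% in Pachon and 67.7% in Tinaja, with H3K27me3 on 15.8%, 23.2% and 12.3% in Pachon, Tinaja and surface.

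Among loci of Pachon alone, the widest placed domain lay on chromosome 6, from 45646535 to 45656608. It measured 10.1 kb in Pachon from 11 peaks, against widest joined domains of 0.903 kb in Tinaja and 1.20 kb in surface, and no H3K4me3 was listed in any morph. On chromosome 23, from 15413312 to 15422558, it measured 9.25 kb in Pachon, against 4.96 kb in Tinaja and 4.48 kb in surface, so both other morphs were near the limit. H3K27me3 covered 28.5% of that locus in Pachon, 25.6% in Tinaja and 34.6% in surface. On chromosome 10, from 6285169 to 6293423, a domain of 8.26 kb in Pachon stood against 3.71 kb in Tinaja and no H3K27ac in surface, with H3K4me3 only in Pachon, on 2.52%. On chromosome 3, from 37463641 to 37469566, a Pachon domain of 5.93 kb stood against 3.70 kb in Tinaja and none in surface, with neither other mark in any morph.

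Among loci of Tinaja alone, chromosome 16, from 4937841 to 4950332, had a domain of 12.5 kb in Tinaja, against 3.87 kb in Pachon and 4.32 kb in surface. Chromosome 24, from 10938536 to 10949716, had 11.2 kb in Tinaja, against 3.52 kb in Pachon and 3.98 kb in surface, with neither H3K4me3 nor H3K27me3 in any morph. H3K27ac covered 50.2% of it in Pachon, 72.3% in Tinaja and 42.8% in surface. At a locus of this class on chromosome 21, from 10611177 to 10617647, H3K27ac covered 63.2% in Tinaja and was not listed in Pachon or surface, and H3K4me3 covered 25.6% in Tinaja alone. H3K27me3 was listed there on 17.9% in Tinaja and 4.44% in surface.

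Among loci of surface alone, the widest lay on chromosome 19, from 535128 to 545922. Its widest joined domain was 4.30 kb in Pachon and 4.18 kb in Tinaja, against 10.8 kb in surface. The number of H3K27ac peaks in it was 6 in Pachon, 6 in Tinaja and 10 in surface, while H3K4me3 covered 14.9%, 25.2% and 10.1%. The map of peaks shows the added surface peaks beside peaks that each morph had. On chromosome 13, from 10996185 to 11005927, the widest joined domain was 2.69 kb in Pachon and 4.66 kb in Tinaja, against 9.74 kb in surface, and H3K4me3 covered 4.32% in Pachon, 11.2% in Tinaja and 13.2% in surface. On chromosome 16, from 9492024 to 9498255, no H3K27ac was listed in Pachon and the widest joined domain was 3.42 kb in Tinaja, against 6.23 kb in surface. H3K4me3 there covered 6.39% in Pachon, 29.1% in Tinaja and 31.5% in surface.

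Loci shared by surface and a single cave were also found side by side. On chromosome 5, from 18544443 to 18565628, the widest joined domain was 3.78 kb in Pachon, against broad domains of 11.5 kb summed in Tinaja and 16.5 kb in surface. Further along the same chromosome, from 18572636 to 18584249, the domain was 11.4 kb in Pachon and 4.88 kb in Tinaja, against 11.6 kb in surface. On chromosome 6, from 49561708 to 49568163, no H3K27ac was listed in Pachon, and the domain was 6.46 kb in Tinaja and 6.27 kb in surface. The neighbours on chromosome 5 thus fell in opposite classes.

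H3K4me3, which the choice of the loci did not use, differed between classes. The loci and classes here are those of the full H3K27ac lists, and only the cover was recomputed with lists of equal length. The class contrasts are thus not adjusted for the length of the H3K27ac lists. On that basis H3K4me3 had its highest cover at the shared loci, at 22.8% in Pachon, 25.2% in Tinaja and 23.7% in surface. In every other class and morph it covered from 14.1% to 20.8%. Within the single classes the cover pooled over loci was highest in the morph that had the broad domain, by a small margin for Pachon alone. At loci of Pachon alone it was 17.0% in Pachon, 16.4% in Tinaja and 14.1% in surface. At loci of Tinaja alone it was 16.3%, 20.8% and 15.9%, and at loci of surface alone 14.4%, 15.5% and 18.5%, in the order Pachon, Tinaja and surface. With the full lists the cover was instead highest in Tinaja in these classes too, at 17.7% in Pachon, 21.6% in Tinaja and 14.1% in surface at loci of Pachon alone, and 15.2%, 21.9% and 18.5% at loci of surface alone. With lists of equal length, the differences were smaller than those of H3K27ac itself, which covered 40.8% in Pachon, 41.4% in Tinaja and 63.7% in surface at loci of surface alone.

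**Figure D5:**
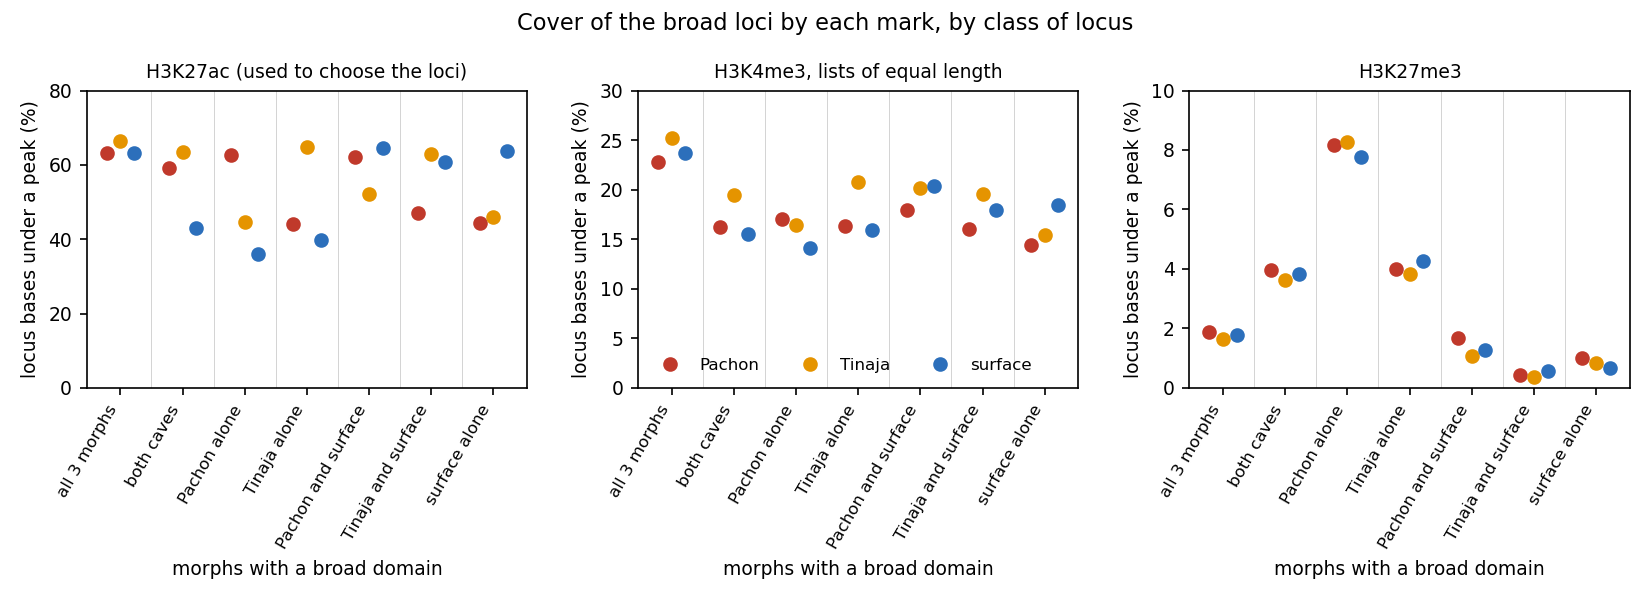
Percent of locus bases under H3K27ac peaks (left), H3K4me3 peaks from lists of equal length (middle) and H3K27me3 peaks (right) in each morph, by class of broad locus; each point is 1 list, with no replicates. The classes are those of the full H3K27ac lists in each panel. H3K4me3 is highest at loci of all 3 morphs, and H3K27me3 at loci of Pachon alone is near 8% in each of the 3 morphs.

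The same comparison was made locus by locus, with the same loci and classes, over the 1367 loci with H3K4me3 in lists of equal length. A single morph had the highest cover at 1365 of them, or 99.9%, against 92.1% of all H3K27ac loci with H3K4me3, and the rest were ties. Over the loci without a tie, cover was highest in Pachon at 19.5% (17.4 to 21.7), against 21.2% of all H3K27ac loci without a tie. It was highest in Tinaja at 50.8% (48.2 to 53.5), against 59.6%, and in surface at 29.7% (27.3 to 32.2), against 19.2%. By class, at the 172 loci of Pachon alone it was highest in Tinaja at 75, or 43.6%, and in Pachon at 61, or 35.5%. Counted by locus, Pachon thus did not lead in its own class. At the 323 loci of Tinaja alone it was highest in Tinaja at 209, or 64.7%. It was highest in surface at 15.7% of the loci of both caves (25 of 159) and at 51.7% of those of surface alone (104 of 201). Locus width, which differs between the broad loci and all H3K27ac loci, was not tested as a part of these differences. Both caves exceeded surface at 33.8% (31.3 to 36.4), against 39.9% of all H3K27ac loci with H3K4me3. By class they did so at 40.9% of the loci of both caves, 43.6% of those of Pachon alone and 41.2% of those of Tinaja alone, all near that background, and at 35.1% of the shared loci. The share was 22.5% at loci of Pachon and surface, 24.4% at those of Tinaja and surface and 14.9% at those of surface alone.

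The full lists gave other levels, and the order of the classes changed in part. Over 1529 loci with H3K4me3, both caves exceeded surface at 44.1%, against 37.1% of all H3K27ac loci with H3K4me3, so the side of the background turned with list length. A single morph had the highest cover at 99.9%, against 93.8%. Over the 1527 loci without a tie, cover was highest in Pachon at 9.04%, against 10.6%, in Tinaja at 79.1%, against 81.8%, and in surface at 11.9%, against 7.56%. By class, both caves exceeded surface at 51.9% of the loci of both caves, 51.4% of the shared loci and 26.9% of those of surface alone. Cover was highest in surface at 4.97% of the loci of both caves and at 26.0% of those of surface alone. Across the 1664 loci, the difference in H3K27ac cover and the difference in H3K4me3 cover between 2 morphs went weakly together. Pearson's r was 0.345 and Spearman's rho 0.284 for Pachon minus surface, 0.360 and 0.342 for Tinaja minus surface, and 0.284 and 0.225 for Pachon minus Tinaja. The points share their libraries, and the same library numbers occur for both marks, so these are descriptions of the lists.

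All 3 morphs had H3K4me3 at 1113 of the 1664 loci, or 66.9%, against 23.9% of all H3K27ac loci. No morph had it at 135, or 8.11%, against 38.5%. These loci were most frequent in the class of Pachon alone, with 49 of 267, and rare among the shared loci, with 6 of 356. It was listed in both caves and not in surface at 105 loci, or 6.31%, against 7.88%, and in surface alone at 9, or 0.541%, against 1.22%. Broad loci offer more bases in which to meet a peak, and the part of width in these shares was not tested.

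H3K27me3 at the loci gave a different picture from H3K27me3 in the domains. Over the same 1664 loci, it covered 3.22% of bases in Pachon, 3.04% in Tinaja and 3.12% in surface, and at least 1 bp was found at 298, 273 and 283 loci in that order. Cover over all broad loci was thus nearly the same in each morph, unlike cover over the broad domains of each morph. These measures use different sets of bases. Whether the lower H3K27me3 of the surface domains went with which loci were broad in surface was not tested. Pearson's r of H3K27me3 cover over the loci was 0.935 between Pachon and surface, 0.923 between Tinaja and surface and 0.955 between Pachon and Tinaja, as a description of lists whose libraries share a library number. Spearman's rho was lower, at 0.708, 0.707 and 0.733 in the same order. Of the 412 loci with the mark in any morph, 180 had it in all 3. In no morph was it listed at 1252 loci, or 75.2%, against 66.3% of all H3K27ac loci. The loci with it in all 3 were 10.8%, against 17.6%. Both caves without surface held 31, or 1.86%, against 2.68%, and surface alone 52, or 3.13%, against 3.55%.

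By class, H3K27me3 was highest at loci of Pachon alone, with 8.17% in Pachon, 8.26% in Tinaja and 7.77% in surface. It was 3.99%, 3.83% and 4.26% at loci of Tinaja alone and 3.95%, 3.62% and 3.83% at loci of both caves. At the shared loci it was 1.87% in Pachon, 1.65% in Tinaja and 1.78% in surface, and at loci of surface alone 1.02%, 0.846% and 0.666%. Surface chromatin met H3K27me3 at 26.2% of the loci of both caves, 24.3% of those of Pachon alone and 22.4% of those of Tinaja alone. It met it at 13.2% of the shared loci and 5.79% of those of surface alone. Among the broad loci, those where surface lacked a broad domain were thus more often marked by H3K27me3 in surface. They were marked about as often in the caves that had the domain, with 22.5% in Pachon and 25.1% in Tinaja at loci of both caves. The share of all H3K27ac loci that met the mark was not computed by morph, so these shares are compared between classes only. The difference in H3K27ac cover and that in H3K27me3 cover between morphs had a Pearson's r of 0.0326 and a Spearman's rho of -0.0585 for Pachon minus surface. They were -0.0188 and -0.0299 for Tinaja minus surface, and -0.0379 and 0.0154 for Pachon minus Tinaja. At 1252 of the 1664 loci no morph had H3K27me3, so no difference in it could arise there. Low values are thus partly fixed in advance, and neither a relation nor its absence is read from them.

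A single morph had the highest H3K27me3 cover at 410 of the 412 loci, or 99.5%, against 75.8% of all H3K27ac loci with H3K27me3, and the rest were ties. Over the loci without a tie, it was highest in Pachon at 39.3% (34.5 to 44.2), against 30.3% of all H3K27ac loci without a tie. It was highest in Tinaja at 28.0% (23.8 to 32.7), against 32.8%, and in surface at 32.7% (28.2 to 37.5), against 36.9%. The order of the morphs differed between classes. Cover was highest in Pachon at 33 of the 89 loci of Pachon alone with the mark, in Tinaja at 31 and in surface at 25. At the 59 loci of both caves these counts were 21 in Pachon, 18 in Tinaja and 20 in surface. At the 123 loci of Tinaja alone they were 35, 36 and 51, at the 70 shared loci 36, 11 and 22, and at the 30 loci of surface alone 18, 7 and 5, in the order Pachon, Tinaja and surface.

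A group of 26 loci, singled out after their values were seen, had H3K27me3 on 50% or more of their bases on average over the morphs. Such cover was rarer in broad domains than in all joined domains. Counted by domain, H3K27me3 covered over 50% of the bases of 2.15% of the broad domains in Pachon, 0.955% in Tinaja and 0.488% in surface. Among all joined domains the shares were 14.9%, 23.1% and 11.5%, and the part of width in this was not tested. Of the 26 loci, 16 were broad in Pachon alone, 6 in Tinaja alone, 3 in all 3 morphs and 1 in both caves, and none in surface alone or in surface with a single cave. In the 16 loci of Pachon alone, H3K27ac covered a median of 88.0% in Pachon, 23.8% in Tinaja and 0% in surface, and 11 of the 16 had no H3K27ac in surface. H3K27me3 covered a median of 97.6% in Pachon, 96.2% in Tinaja and 91.5% in surface. H3K4me3 covered 100% in Pachon, 84.0% in Tinaja and 77.8% in surface. By the medians, all 3 marks thus lay over nearly the same bases in the Pachon lists, while the surface lists held the methylation marks without the acetylation. Single loci departed from this. The lowest covers in Pachon were 59.5% for H3K27ac, 56.2% for H3K4me3 and 38.6% for H3K27me3, and the highest H3K27ac cover in surface was 43.1%. Of the 26 loci, 17 were on unplaced scaffolds, or 65.4%, against 21.5% of all broad loci. The part of unplaced sequence in this overlap was not tested. Without these 26 loci, H3K27me3 covered 2.28% of the broad domains of Pachon, 1.99% of those of Tinaja and 1.01% of those of surface. The loci of Pachon alone then had 3.04% in Pachon, 3.22% in Tinaja and 2.71% in surface, so they no longer stood above the loci of both caves, at 3.69%, 3.36% and 3.54%.

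The placed member of that group with the most H3K4me3 lay on chromosome 23, from 4239746 to 4245638, and the map of peaks shows it. H3K27ac covered 88.6% in Pachon, 23.3% in Tinaja and 0% in surface. H3K4me3 covered 100% in Pachon, 93.3% in Tinaja and 82.4% in surface, and H3K27me3 99.1%, 98.2% and 89.3%. On chromosome 14, from 20875157 to 20880478, a single H3K27ac peak covered the whole locus in Pachon, and cover was 34.9% in Tinaja and 0% in surface. H3K27me3 covered 99.4%, 97.9% and 93.1% of it. On chromosome 16, from 10098107 to 10103560, H3K27ac covered 85.8%, 26.8% and 0%, and H3K27me3 97.7%, 90.2% and 65.4%, in the order Pachon, Tinaja and surface. A locus on chromosome 22, from 13131485 to 13137594, differed, since its H3K27ac was broad in each morph, with 6.08 kb in Pachon, 6.10 kb in Tinaja and 6.02 kb in surface. H3K27me3 covered 82.2% of it in Pachon, 81.4% in Tinaja and 81.7% in surface.

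Broad loci were scattered over all 25 placed chromosomes. On the placed chromosomes, 1307 loci lay at 0.828 per Mb on chromosome 12 to 1.80 per Mb on chromosome 5. All joined domains were also sparser on chromosome 12, with 40.9 per Mb as a mean of the morphs, than on chromosome 5, with 63.5 per Mb. Per 1000 joined domains of a morph, again on average, the broad loci numbered from 17.9 on chromosome 15 to 32.0 on chromosome 21. Another broad locus lay within 10 kb of 255 of them, or 19.5%, and within 100 kb of 692, or 52.9%. The median distance to the nearest other locus was 79.1 kb. These distances were not computed for other H3K27ac loci, so closeness is not read as a trait of broad loci.

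A few groups of loci within 200 kb, chosen after their values were seen, were uneven between morphs. On chromosome 2, from 33077164 to 33174498, 7 broad loci lay in 97.3 kb and none of them had a surface domain. Pachon had 5 domains of 32.5 kb in all there and Tinaja 3 of 26.7 kb. H3K27ac covered 33.5% of the stretch with 49 peaks in Pachon, 36.8% with 54 in Tinaja and 21.6% with 30 in surface. H3K4me3 covered 6.74% in Pachon, 14.3% in Tinaja and 6.69% in surface, so Pachon and surface had nearly the same. H3K27me3 covered 1.58%, 0.693% and 1.32%. The surface list thus held fewer acetylated bases over the stretch as a whole, though the map of peaks shows parts of it where surface had as many as Pachon.

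On chromosome 7, from 32415365 to 32519609, 8 loci lay in 104 kb, with domains of 39.4 kb in Pachon, 34.2 kb in Tinaja and 14.0 kb in surface. H3K27me3 was not listed there in Pachon, and covered 0.283% in Tinaja and 1.65% in surface. On chromosome 8, from 16546375 to 16677347, 6 loci summed to 42.2 kb in Pachon, 19.7 kb in Tinaja and 26.7 kb in surface, and H3K27me3 covered 1.38%, 0.961% and 4.13%. On chromosome 18, from 15592765 to 15771937, 8 loci ran the other way, with 34.2 kb in Pachon, 56.4 kb in Tinaja and 48.8 kb in surface. The uneven groups therefore did not all favour the same morph.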

How the data were processed

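Chromatin immunoprecipitation libraries of 3 marks and total chromatin from adult livers of Pachon cave, Tinaja cave and surface fish made up 26 samples. Per the submitters' processing notes, MACS2, Bowtie2, SAMtools and bcl2fastq 2.20 were used. How they were set, the genome build and the pooling of libraries are not given. Per morph and mark, 1 list of peak positions was deposited. Its score column, as the authors deposited it, holds only 0 and was not used, so no peak height entered, and a list made deeper or from more libraries can hold more and wider peaks.

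Peaks of H3K27ac at most 1 kb apart were joined, joined domains of 5000 bp or more were kept, and domains of the 3 morphs that overlapped by 1 bp or more were merged into loci. Cover is the percent of bases under peaks, weighted by width over a class. Lists of equal length keep the widest peaks of each list up to the length of the shortest list of that mark. Profiles along domains average 20 bins per domain, with each domain weighted equally. Shares carry exact binomial (Clopper-Pearson) 95% intervals that cover counting error only. The scripts ran in Python 3.11.15 with SciPy 1.17.1, NumPy 2.4.6 and Matplotlib 3.10.9, and joining and cover were tested on simulated data. No test was made between morphs, since each has 1 pooled list and regions are not replicates. The gene table at hand is of another assembly, so no gene and no sequence is given.

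The members and lists were chosen with earlier results of these data known. Regions named are, on placed chromosomes, the 10 widest shared loci by mean width, the 3 widest of each other class, the 3 with the highest H3K4me3 cover and the 3 with the lowest among the 50 widest shared loci. They also include the 5 with the highest H3K27me3 cover, the 4 with the largest width ratio, up to 3 per class without H3K27ac in a remaining morph, and the pairs next to the limit. Not all are described. The alternatives were other join distances and minimum widths, summed peak length, lists of equal length, placed chromosomes only and overlap of 50% of the shorter domain. The setting without the 26 loci of high H3K27me3 was added after seeing the data.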

Additional observations from a re-analysis of the deposited data

How the results depend on the processing

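Of 52 values under 9 other settings, 29 stayed close to the reported ones and 23 moved. Close means within 1.5 times for counts, within the binomial interval for the share, and within 1 SD over the morphs for cover. The number of loci, 1664 as reported, was 306 with peaks at most 500 bp apart joined, 5926 with 2 kb, 2929 with a minimum of 4 kb, 333 with 8 kb and 476 by summed peak length. The share with a broad domain in all 3 morphs, 21.4% as reported, was 15.4% with 500 bp, 31.7% with 2 kb, 26.3% with 4 kb and 18.3% with 8 kb. Loci of both caves without surface, 187 as reported, numbered 26 with 500 bp, 928 with 2 kb, 353 with 4 kb, 35 with 8 kb, 53 by summed length and 74 with lists of equal length. Loci of surface alone, 242 as reported, numbered 51, 443, 368, 53 and 71 under the first 5 of these settings, in the same order. H3K4me3 cover averaged over the morphs, 24.9% as reported (SD 4.87, n = 3 morphs), was 36.4% with 500 bp and 17.9% with 2 kb. H3K27me3 cover, 2.61% as reported (SD 1.31), was 5.22% with 500 bp. The cause of these changes was not tested. By these limits, placed chromosomes only and, added after seeing the data, the loci without the 26 of high H3K27me3 moved none of the 6 results. The SD used for cover is the spread between morphs, so close does not mean unchanged. Without the 26 loci, H3K27me3 cover averaged over the morphs fell from 2.61% to 1.76%, and with placed chromosomes only it was 2.11%. Overlap of 50% moved none of the 4 counts and shares of loci, and cover of domains does not depend on it. No paired analysis was possible because each morph and mark has 1 pooled list, and for the same reason no single library could be left out. Peak heights and depth are not given, and they limit every comparison of widths between morphs.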

Other observations

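The widest broad domain of all, in Tinaja alone, lay on an unplaced scaffold and spanned 23.6 kb, against widest joined domains of 4.97 kb in Pachon and 3.55 kb in surface. H3K27ac covered 57.8% of that locus in Pachon, 77.3% in Tinaja and 50.5% in surface, in 12, 10 and 12 peaks. The locus was thus acetylated in each morph, and only in Tinaja did the peaks lie close enough to be joined over its whole length. H3K4me3 covered 2.43% of it in Pachon, 5.73% in Tinaja and 0.869% in surface.

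The share of broad loci with a domain in all 3 morphs varied between chromosomes, from 5% of the 20 loci on chromosome 11 to 31.4% of the 35 loci on chromosome 8. Just above the 5000 bp limit, the 225 Pachon domains of 5000 to 5500 bp had H3K27me3 on 6.53% of bases, against 2.04% in the 347 domains of 4500 to 5000 bp. In Tinaja the values were 2.49% and 2.25%, and in surface 0.566% and 1.72%. The Pachon band above the limit included the domains of 5322 bp on chromosome 14 and 5454 bp on chromosome 16. H3K27me3 covered 99.4% and 97.7% of them in Pachon. The part of such domains in the Pachon difference was not tested.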
